A study of Homo sapiens with 2 samples.

Results

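Keratins, claudins and cadherins are the gene families by which epithelial and mesenchymal cells are usually told apart, and their transcript levels were read in MDA-MB-231 cells on 2 arrays. The members were chosen by symbol: every protein-coding gene with a named cluster on the array whose symbol is KRT, CLDN or CDH followed by a digit, which left out the keratin-associated proteins and the protocadherins. This gave 73 of 11915 named protein-coding genes, made up of 47 keratins, 24 claudins and 2 cadherins. MDA-MB-231 is an established human breast cancer cell line, commonly classed as mesenchymal-like and claudin-low. The array of compound 1, a small molecule aimed at miR-544, is set against that of a miR-544 antagomir, the class of antisense oligonucleotide used against a microRNA. Cells had either agent 24 hours ahead of hypoxia, which lasted 5 days with oxygen under 1%, so both groups share hypoxia and neither holds untreated or normoxic cells. According to the design text RNA of 3 samples was pooled, and each treatment has 1 array, so no value below has a replicate error and no difference has a test.

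Keratins build the intermediate filaments of epithelia. A type I keratin always pairs with a type II keratin, and the pair in use marks the epithelium: KRT8 with KRT18 in simple epithelia, KRT5 with KRT14 in basal layers, KRT1 with KRT10 in the upper epidermis, and a further set in hair and nail. Claudins are membrane proteins that form the strands of tight junctions, some sealing the gap between cells and others making ion-selective pores. Cadherins are calcium-dependent adhesion receptors, and in the transition from epithelial to mesenchymal cells repressors of the SNAI and ZEB families are known to act on E-box sequences in junction genes.

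The promoters of these families differ in their letters, and the sequences that show it are given first. RefSeq windows of 300 bases, from 250 before to 50 after a gene's start on GRCh38.p14, were found for 53 of the 73 members. The TATA letters TATAAA were searched on the sense strand of each gene. They began 35 to 20 bases before the start in 15 of 36 keratin windows (41.7%) and in 0 of 27 claudin windows, against 3.00% of 22198 windows of protein-coding genes. The 15 keratins with this match were KRT3, KRT10, KRT24, KRT25, KRT27, KRT28, KRT31, KRT33A, KRT33B, KRT35, KRT37, KRT38, KRT40, KRT71 and KRT76, which belong to suprabasal layers, the hair root sheath and the hair shaft. Windows were found for only 2 of the 6 simple epithelial keratins and 1 of the 5 basal and wound keratins. None of these windows held the match, and the other keratins of these groups could not be read for it. Windows of 1 gene can overlap, and a match of letters is a description of the sequence, not a site in use. The stretch from 60 bases before to 10 after the start is shown for 7 of them, picked after the matches were seen, with the TATA letters in capitals, to set the matches side by side:
KRT10 (chr17:40822605-40822674, minus strand): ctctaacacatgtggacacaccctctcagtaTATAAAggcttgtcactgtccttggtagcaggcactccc
KRT28 (chr17:40799950-40800019, minus strand): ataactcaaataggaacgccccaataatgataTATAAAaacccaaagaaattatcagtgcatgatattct
KRT31 (chr17:41397599-41397668, minus strand): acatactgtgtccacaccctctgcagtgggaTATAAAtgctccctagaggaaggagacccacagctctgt
KRT35 (chr17:41481142-41481211, minus strand): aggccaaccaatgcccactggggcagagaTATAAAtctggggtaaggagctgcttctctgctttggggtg
KRT38 (chr17:41440974-41441043, minus strand): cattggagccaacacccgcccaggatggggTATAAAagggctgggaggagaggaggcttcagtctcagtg
KRT71 (chr12:52553136-52553205, minus strand): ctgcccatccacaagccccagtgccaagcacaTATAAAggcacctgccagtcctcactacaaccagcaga
KRT76 (chr12:52777336-52777405, minus strand): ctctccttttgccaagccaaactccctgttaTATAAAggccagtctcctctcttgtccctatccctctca

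The TATA letters stood there in 4 of 10 windows of keratins past the entry level defined below on both arrays (40.0%) and in 11 of 23 windows of keratins below it on both (47.8%). Windows were found for 9 of the 18 keratins past it and 20 of the 25 below it. The capitals begin between 28 and 31 bases before the start in these 7 genes. Claudin windows held more CpG pairs, with a median of 8 a window, than keratin windows with a median of 2, while all windows of protein-coding genes had a median of 21. The E-box letters CAGGTG, searched on both strands (CACCTG on the other), were in 8 of 36 keratin windows (22.2%) and 8 of 27 claudin windows (29.6%), against 19.9% of windows of protein-coding genes. For claudins they were in 6 of 17 windows of genes past the entry level on both arrays and 1 of 9 of genes below it. For keratins these counts were 3 of 10 and 5 of 23. Any relation of these letters to level was not tested. One of the 2 windows of CLDN7 held 5 such matches, a number reached by 12 of the 22198 windows (0.0541%). CLDN7 and CLDN3, both claudins of simple epithelia, are shown in full because the array read both at high signal while the E-box letters stand in their windows, and they too were picked after the matches were seen. The capitals mark the matches:
CLDN7 (chr17:7262429-7262728, minus strand): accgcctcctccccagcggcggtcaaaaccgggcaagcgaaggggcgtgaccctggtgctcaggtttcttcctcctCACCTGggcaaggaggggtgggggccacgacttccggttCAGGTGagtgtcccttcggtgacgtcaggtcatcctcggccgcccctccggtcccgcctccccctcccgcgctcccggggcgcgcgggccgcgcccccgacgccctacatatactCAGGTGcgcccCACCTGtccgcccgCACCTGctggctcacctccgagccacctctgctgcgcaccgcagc
CLDN3 (chr7:73770221-73770520, minus strand): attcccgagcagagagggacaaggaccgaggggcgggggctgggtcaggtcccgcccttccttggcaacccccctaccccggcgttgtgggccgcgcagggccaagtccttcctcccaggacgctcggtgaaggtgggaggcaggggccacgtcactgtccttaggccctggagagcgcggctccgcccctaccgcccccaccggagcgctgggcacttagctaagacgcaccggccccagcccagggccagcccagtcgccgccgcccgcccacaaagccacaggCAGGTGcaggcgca

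In CLDN7 the matches begin 174, 135, 20 and 9 bases before the start and 5 bases after it, and in CLDN3 the single match begins 36 bases after it. The windows of CLDN1, CLDN4 and KRT8 held no match of these letters.

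**Figure D1:**
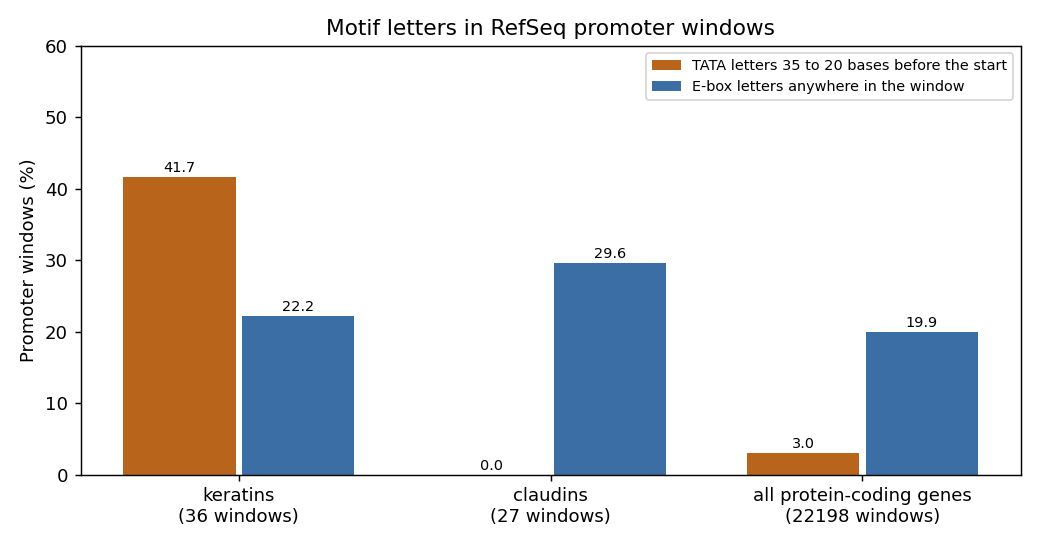
Share of RefSeq promoter windows (percent, vertical axis from 0) that hold the TATA letters 35 to 20 bases before the start (brown bars) or the E-box letters anywhere (blue bars), for keratins, claudins and all protein-coding genes. The keratin bar for the TATA letters stands at 41.7, the claudin bar at 0 and the bar of all protein-coding genes at 3.00.

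The values are deposited signals on a scale read as log2, and their array medians were 5.62 for compound 1 and 5.59 for the antagomir. Probes differ in how strongly they bind, so levels are not ranked between genes here, and each is set against fixed levels instead. The entry level of 5.60 is the 50th percentile of mean levels over all 53617 clusters on the array. A stricter level of 8.22, chosen after seeing the data, is the 95th percentile of 124 genes of 5 families used in hair, cornified skin, germ cells or sensory cells (KRTAP, LCE, PRAMEF, TAAR and VN1R), which stand in for genes not expressed, although the silence of these genes in this line was not tested. On either array 37.1% of those stand-in genes reached the entry level, so reaching it alone does not show that a gene is transcribed.

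The entry level was reached on at least 1 array by 40 of 73 members (54.8%), against 80.4% of all protein-coding genes, and the stricter level by 6 members (8.22%), against 29.6% of all protein-coding genes. The stand-in genes themselves passed the stricter level in 9 of 124 cases (7.26%), a share largely set in advance, since the level is their own 95th percentile. The members' share is close to it. These 6 were the keratins KRT18, KRT19 and KRT80 and the claudins CLDN1, CLDN3 and CLDN7. Of the 47 keratins 22 reached the entry level on at least 1 array, of the 24 claudins 16, and of the 2 cadherins 2. Both arrays were below it for 33 members, and 5 members (6.85%) reached it on 1 array only, each on the compound 1 array. Over all protein-coding genes 357 (3.00%) reached it on 1 array only, 222 with compound 1 and 135 with the antagomir. Among the stand-in genes 6 of 124 (4.84%) did so, 3 with compound 1 and 3 with the antagomir.

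**Figure D2:**
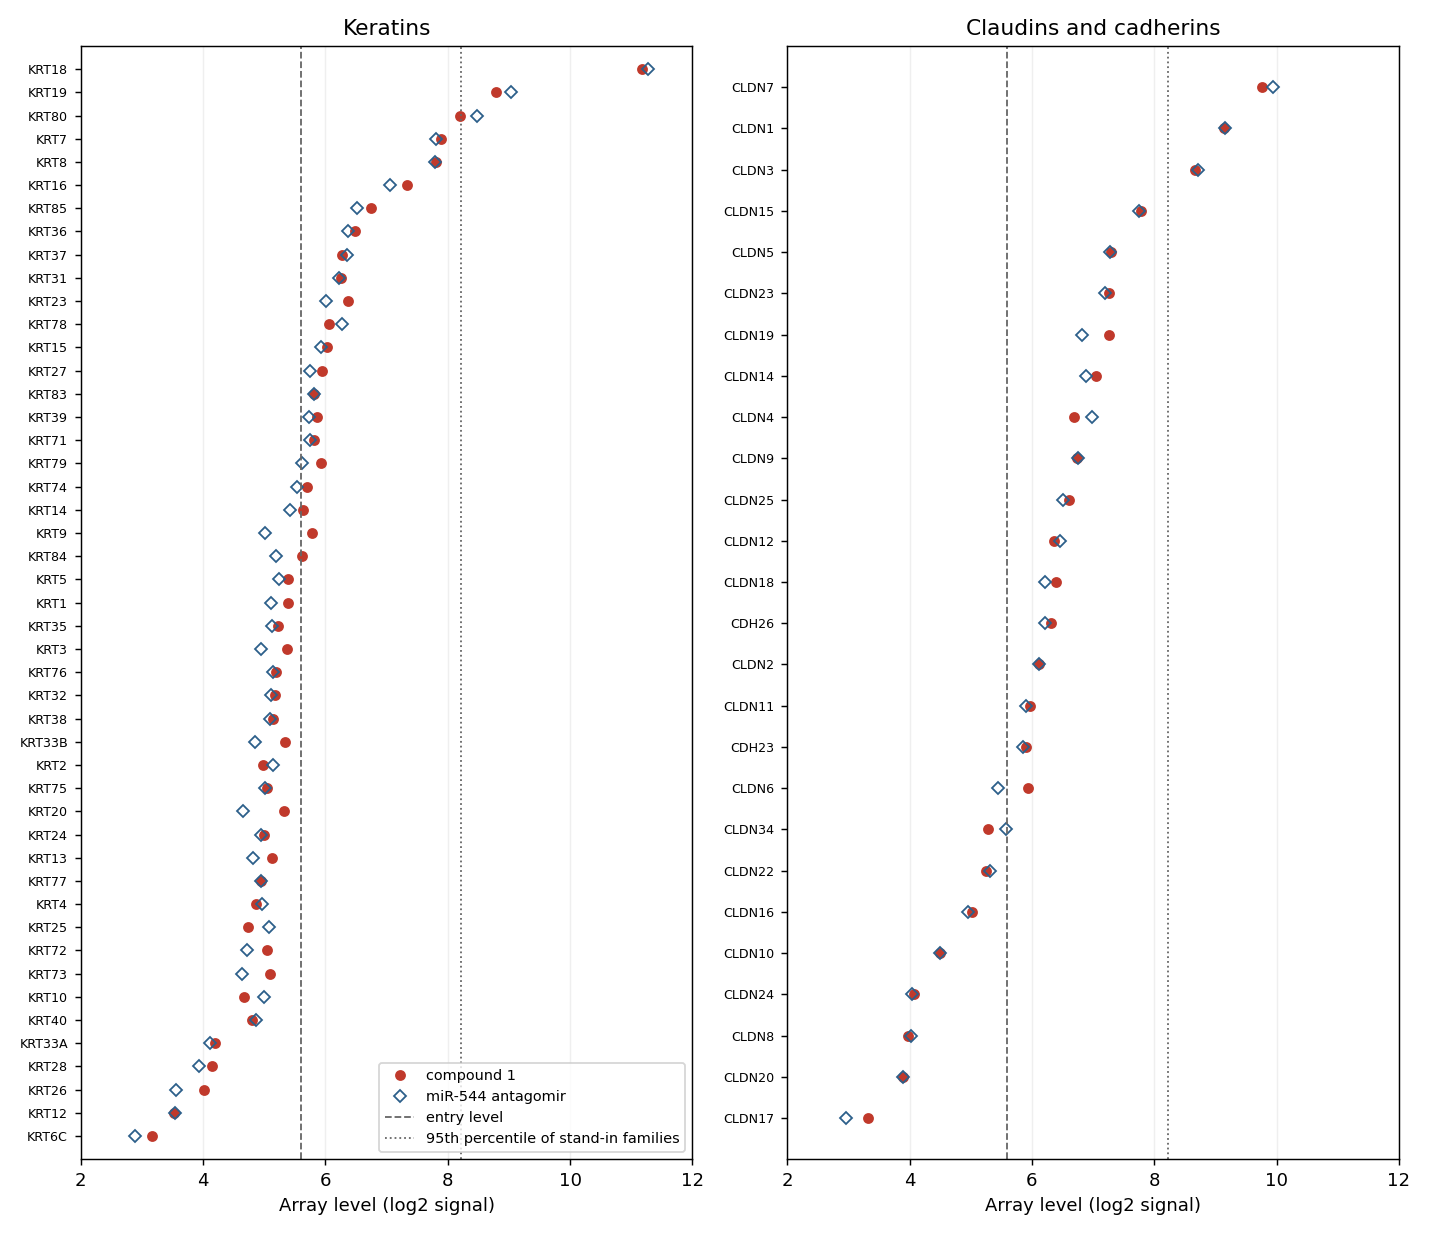
Level of each keratin (left) and of each claudin and cadherin (right) on the compound 1 array (red circles) and the miR-544 antagomir array (blue diamonds), in log2 signal on the horizontal axis, sorted by mean for layout only. The dashed line is the entry level of 5.60 and the dotted line the stricter level of 8.22, which KRT18, KRT19, CLDN1, CLDN3 and CLDN7 exceed on both arrays.

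Among the simple epithelial keratins, 5 of the 6 listed genes reached the entry level on both arrays. KRT18, the type I partner of KRT8, was at 11.18 with compound 1 and 11.28 with the antagomir. This value comes from 1 of its 2 clusters, and the 10 named clusters nearest to it by number all belong to chromosome 3, whereas the gene lies on chromosome 12. The other KRT18 cluster, numbered among chromosome 12 genes, was at 7.33 with compound 1 and 7.36 with the antagomir. Both clusters thus reached the entry level, but only the first the stricter one, and keratin 18 has many processed copies in the genome, so its values are uncertain. A pseudogene of KRT18 named on the array, KRT18P55, was at 6.49 with compound 1 and 6.18 with the antagomir. Whether such copies add to the KRT18 values was not tested.

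KRT8, the type II partner, was at 7.81 with compound 1 and 7.80 with the antagomir. KRT19, a type I keratin of ductal and luminal epithelium that lacks the usual tail, was at 8.78 with compound 1 and 9.04 with the antagomir. KRT7, its type II counterpart in ducts, was at 7.88 with compound 1 and 7.81 with the antagomir. All 3 were thus read above the entry level after both treatments. Pseudogenes of KRT8 and KRT19 are also named on the array. KRT8P41 was at 5.69 with compound 1 and 6.22 with the antagomir, and KRT19P2 at 5.39 with compound 1 and 4.94 with the antagomir. Whether such copies add to the values of KRT8 and KRT19 was not tested. KRT23 was at 6.37 with compound 1 and 6.01 with the antagomir, and KRT20, the keratin of gut epithelium and Merkel cells, stayed below the entry level at 5.32 with compound 1 and 4.65 with the antagomir.

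The basal pair was near the entry level. KRT5 was at 5.40 with compound 1 and 5.24 with the antagomir, below the entry level on both. KRT14 was at 5.63 with compound 1 and 5.42 with the antagomir, on opposite sides of it. KRT15, a keratin of basal and stem-like cells, was at 6.02 with compound 1 and 5.92 with the antagomir, just past the entry level on both. KRT16, which is induced in wounds, was at 7.34 with compound 1 and 7.05 with the antagomir. The pseudogene KRT16P2, left out of the members since it codes for no protein, was at 9.47 with compound 1 and 9.23 with the antagomir. Whether near-identical copies in this family add to the values of KRT14 and KRT16 was not tested, so these values are uncertain. KRT6C was at 3.17 with compound 1 and 2.88 with the antagomir, far below the entry level. The other 3 of the 8 listed basal and wound keratins are not analysed here.

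Of 14 suprabasal and site-restricted keratins, 3 reached the entry level on both arrays. KRT80, a type II keratin of many epithelia, was at 8.20 with compound 1 and 8.48 with the antagomir, and so lay on opposite sides of the stricter level. KRT78 was at 6.06 with compound 1 and 6.26 with the antagomir, and KRT79 at 5.93 with compound 1 and 5.62 with the antagomir. The epidermal pair stayed below the entry level on both arrays, with KRT1 at 5.39 with compound 1 and 5.11 with the antagomir, and KRT10 at 4.67 with compound 1 and 5.00 with the antagomir. KRT9, the keratin of palms and soles, reached it only on the compound 1 array.

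The keratins of the root sheath and of hair and nail mark appendages of the skin. Of 9 root sheath keratins, 2 reached the entry level on both arrays, KRT27 at 5.94 with compound 1 and 5.75 with the antagomir and KRT71 at 5.81 with compound 1 and 5.755 with the antagomir. KRT74 reached it on the compound 1 array only, and 6 on neither. Of 13 hair and nail keratins 6 reached it on both arrays, namely KRT31, KRT36, KRT37, KRT39, KRT83 and KRT85. Among the type I genes KRT31 was at 6.26 with compound 1 and 6.23 with the antagomir, KRT36 at 6.48 with compound 1 and 6.36 with the antagomir, KRT37 at 6.28 with compound 1 and 6.35 with the antagomir, and KRT39 at 5.87 with compound 1 and 5.72 with the antagomir. Of the type II genes KRT83 was at 5.81 on both arrays and KRT85 at 6.74 with compound 1 and 6.52 with the antagomir. None of these 22 appendage keratins reached the stricter level on either array. The share of hair and nail keratins at the entry level on at least 1 array (53.8%) compares with 38.1% of the 84 keratin-associated proteins, which are the matrix proteins of the same tissue.

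The keratin genes lie in 2 clusters, on chromosome 17 for most type I genes and on chromosome 12 for the type II genes and KRT18. Of 25 members on chromosome 17 and 22 on chromosome 12, 11 in each reached the entry level on at least 1 array. On chromosome 12 KRT80 and KRT7 stand at one end of the members and KRT8 and KRT18 at the other. Of the genes between them KRT71, KRT78, KRT79, KRT83 and KRT85 passed the entry level on both arrays, KRT74 and KRT84 on the compound 1 array only, and the others on neither. On chromosome 17 KRT19 stands next to KRT15 and near KRT14 and KRT16.

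**Figure D3:**
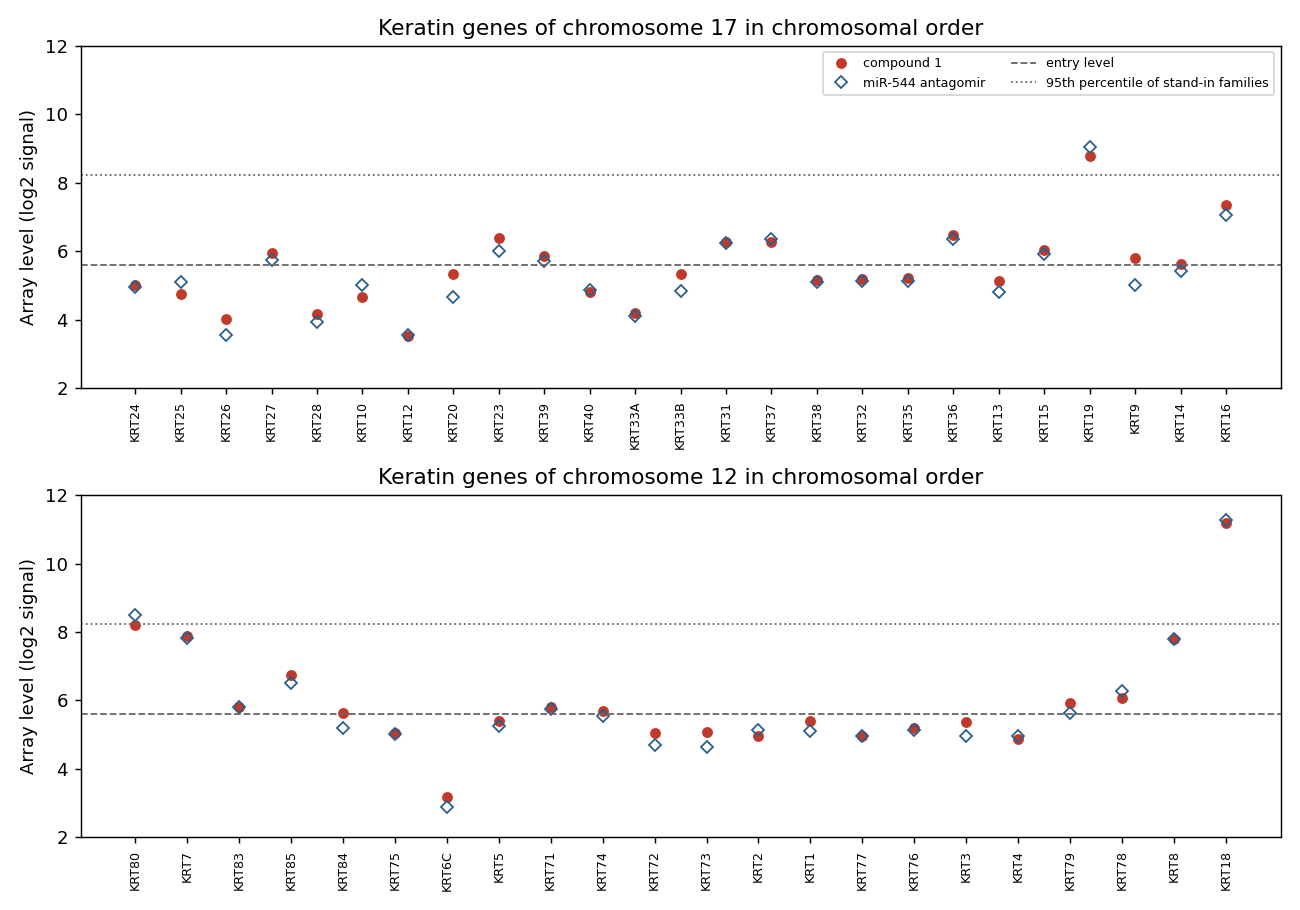
Keratin genes of chromosome 17 (top) and chromosome 12 (bottom) by their order along the chromosome, with the level on the compound 1 array (red circles) and the miR-544 antagomir array (blue diamonds) in log2 signal. The dashed line is the entry level of 5.60 and the dotted line the stricter level of 8.22, and the KRT18 points at 11.18 and 11.28 come from the cluster numbered among chromosome 3 genes.

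The claudins used to define the claudin-low class of breast cancer, CLDN3, CLDN4 and CLDN7, all gave signal above the entry level. CLDN7 was at 9.77 with compound 1 and 9.93 with the antagomir. CLDN3 was at 8.66 with compound 1 and 8.71 with the antagomir, and CLDN4, its neighbour on chromosome 7, at 6.69 with compound 1 and 6.98 with the antagomir. CLDN7 and CLDN3 thus passed the stricter level on both arrays and CLDN4 passed it on neither. With no other cell line on these arrays, whether the levels are low for a breast cancer line cannot be read from them.

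Among the sealing claudins, CLDN1, which is essential for the barrier of the epidermis, was at 9.13 with compound 1 and 9.15 with the antagomir, past the stricter level on both. CLDN5, best known from endothelium, was at 7.29 with compound 1 and 7.27 with the antagomir. CLDN18, of stomach and lung, was at 6.40 with compound 1 and 6.21 with the antagomir. CLDN5 and CLDN18 thus lay between the entry level and the stricter one. CLDN14, of the inner ear and kidney, was at 7.05 with compound 1 and 6.89 with the antagomir. CLDN11, of myelin and Sertoli cells, was at 5.96 with compound 1 and 5.90 with the antagomir. CLDN19, of the kidney tubule and retina, was at 7.26 with compound 1 and 6.82 with the antagomir, the widest gap among the claudins with both arrays past the entry level. Its usual partner in the kidney, CLDN16, was below the entry level at 5.02 with compound 1 and 4.96 with the antagomir.

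Of the pore-forming claudins, CLDN15, a cation channel of the gut, was at 7.79 with compound 1 and 7.74 with the antagomir. CLDN2, a cation and water channel, had the same value of 6.12 on both arrays. Identical values on both arrays were also held by CLDN20 and KRT77 and by 201 protein-coding genes in all, and the reason is not known. CLDN10 (4.49 with compound 1 and 4.50 with the antagomir), which forms cation or anion channels by isoform, and the anion channel CLDN17 (3.32 with compound 1 and 2.96 with the antagomir) were below the entry level.

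CLDN23 was at 7.26 with compound 1 and 7.20 with the antagomir, CLDN9 at 6.74 with compound 1 and 6.76 with the antagomir, CLDN25 at 6.61 with compound 1 and 6.51 with the antagomir, and CLDN12 at 6.36 with compound 1 and 6.45 with the antagomir. All 4 passed the entry level on both arrays and the stricter one on neither. CLDN6, a claudin of embryonic epithelium, was at 5.94 with compound 1 and 5.45 with the antagomir, so it crossed the entry level, while its neighbour CLDN9 on chromosome 16 did not. The remaining claudins, CLDN8, CLDN20, CLDN22, CLDN24 and CLDN34, were below it on both arrays, between 3.89 and 5.29 on the compound 1 array and between 3.89 and 5.57 on the antagomir array.

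The cadherins were represented by CDH23 and CDH26 only. CDH23, the tip-link cadherin of inner ear hair cells, was at 5.91 with compound 1 and 5.85 with the antagomir. CDH26, a cadherin of epithelium in allergic inflammation, was at 6.31 with compound 1 and 6.21 with the antagomir. Both lay past the entry level and well under the stricter one. The 5 listed type I and 13 listed type II classical cadherins are not analysed here, so the cadherin switch of the epithelial to mesenchymal transition could not be read from these genes.

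The members nearest to the entry level by mean were KRT74, CLDN6 and KRT79 just above it, at means of 5.62, 5.69 and 5.77, and KRT14, CLDN34 and KRT9 just below it, at 5.53, 5.43 and 5.40.

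Marker lists of cell identity were read the same way. Of 8 named mesenchymal-like markers 7 passed the entry level on both arrays and 6 the stricter level, with the receptor kinase AXL at 12.77 with compound 1 and 12.78 with the antagomir, and the filament protein VIM at 10.49 with compound 1 and 10.61 with the antagomir. TWIST1 was the exception, at 4.70 with compound 1 and 4.35 with the antagomir. The other VIM clusters were at 8.42 and 8.37 on the compound 1 array, against 8.41 and 8.45 on the antagomir array. Of 11 named luminal epithelial markers 7 reached the entry level on at least 1 array and 0 the stricter level. EPCAM, the epithelial adhesion molecule, was at 7.05 with compound 1 and 6.91 with the antagomir, and the splicing regulator ESRP1 at 4.49 with compound 1 and 4.52 with the antagomir. Mesenchymal markers thus passed the stricter level alongside KRT18, KRT19, CLDN1, CLDN3 and CLDN7.

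Of 7 stratified epithelium markers 3 reached the entry level, of which SFN, at 9.66 with compound 1 and 9.65 with the antagomir, passed the stricter one. The fibroblast markers DCN and LUM were both below the entry level, at 3.12 and 4.34 on the compound 1 array, against 3.12 and 4.16 on the antagomir array. Of 5 endothelial markers 4 reached the entry level and 0 the stricter level. VWF was at 5.81 with compound 1 and 5.74 with the antagomir, KDR at 7.03 with compound 1 and 6.92 with the antagomir, TIE1 at 6.74 with compound 1 and 6.57 with the antagomir and PECAM1 at 5.57 with compound 1 and 5.32 with the antagomir, beside CLDN5 above. Of 3 leukocyte markers only the lysosomal protein gene CD68, which is not particular to leukocytes, reached it, at 11.59 with compound 1 and 11.60 with the antagomir. CD14 (5.48 with compound 1 and 5.18 with the antagomir) and LYZ (5.44 with compound 1 and 4.96 with the antagomir) were below it. In pooled RNA, fewer cells of a type and less RNA per cell cannot be told apart.

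The partners that anchor these families were read next. In the desmosome, which ties keratin filaments to the membrane, 9 of 14 named genes reached the entry level on at least 1 array and 4 the stricter level. DSP, the plakin that binds keratins, was at 10.06 on both arrays, and the desmosomal cadherin DSG2 at 10.25 with compound 1 and 10.35 with the antagomir. The desmosomal cadherins of stratified epithelium, DSG1, DSG3, DSG4, DSC1 and DSC3, were all below the entry level, between 2.82 and 4.45 on the compound 1 array and between 2.94 and 4.41 on the antagomir array. DSC2, the desmocollin of simple epithelia, was at 7.57 with compound 1 and 7.59 with the antagomir. DSG2 and DSC2 thus lay above the entry level and the other 5 desmosomal cadherins below it. The keratins differed in shares but did not split fully. Past the entry level on both arrays were 5 of 6 simple epithelial keratins, all but KRT20. The basal and wound keratins had 2 of 5 past it (KRT15 and KRT16). The suprabasal and site-restricted keratins had 3 of 14 (KRT78, KRT79 and KRT80).

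Of 12 tight junction partners 8 reached the entry level on at least 1 array and 3 the stricter level. TJP1, the scaffold that binds claudin tails, was at 10.02 with compound 1 and 10.07 with the antagomir, and the strand protein gene OCLN at 7.96 with compound 1 and 7.84 with the antagomir. CGN, which encodes the junction plaque protein cingulin, was at 6.10 with compound 1 and 5.58 with the antagomir, and so crossed the entry level with a difference of 0.52. Of 13 listed cadherin partners 5 were named, all past the entry level, among them JUP, which encodes plakoglobin (9.03 with compound 1 and 8.93 with the antagomir), and VCL, which encodes vinculin (10.81 with compound 1 and 11.02 with the antagomir).

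Transcription factors of the epithelial to mesenchymal transition were set against the same levels. SNAI2 was at 10.41 with compound 1 and 10.33 with the antagomir. ZEB1 was at 8.18 with compound 1 and 8.20 with the antagomir, just under the stricter level, and SNAI1 at 6.51 with compound 1 and 6.33 with the antagomir. Of 10 such factors 8 reached the entry level on both arrays and 2, SNAI2 and TCF3, the stricter level. Of 10 epithelial regulators 6 reached the entry level and only KLF5 the stricter one, at 8.29 with compound 1 and 8.28 with the antagomir, while GRHL1, GRHL2, GRHL3 and ESRP1 were below the entry level on both. Among 8 other intermediate filament genes all reached the entry level and 4 the stricter level, namely VIM and the lamins LMNA, LMNB1 and LMNB2, of which LMNB1 was at 8.50 with compound 1 and 8.95 with the antagomir.

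**Figure D4:**
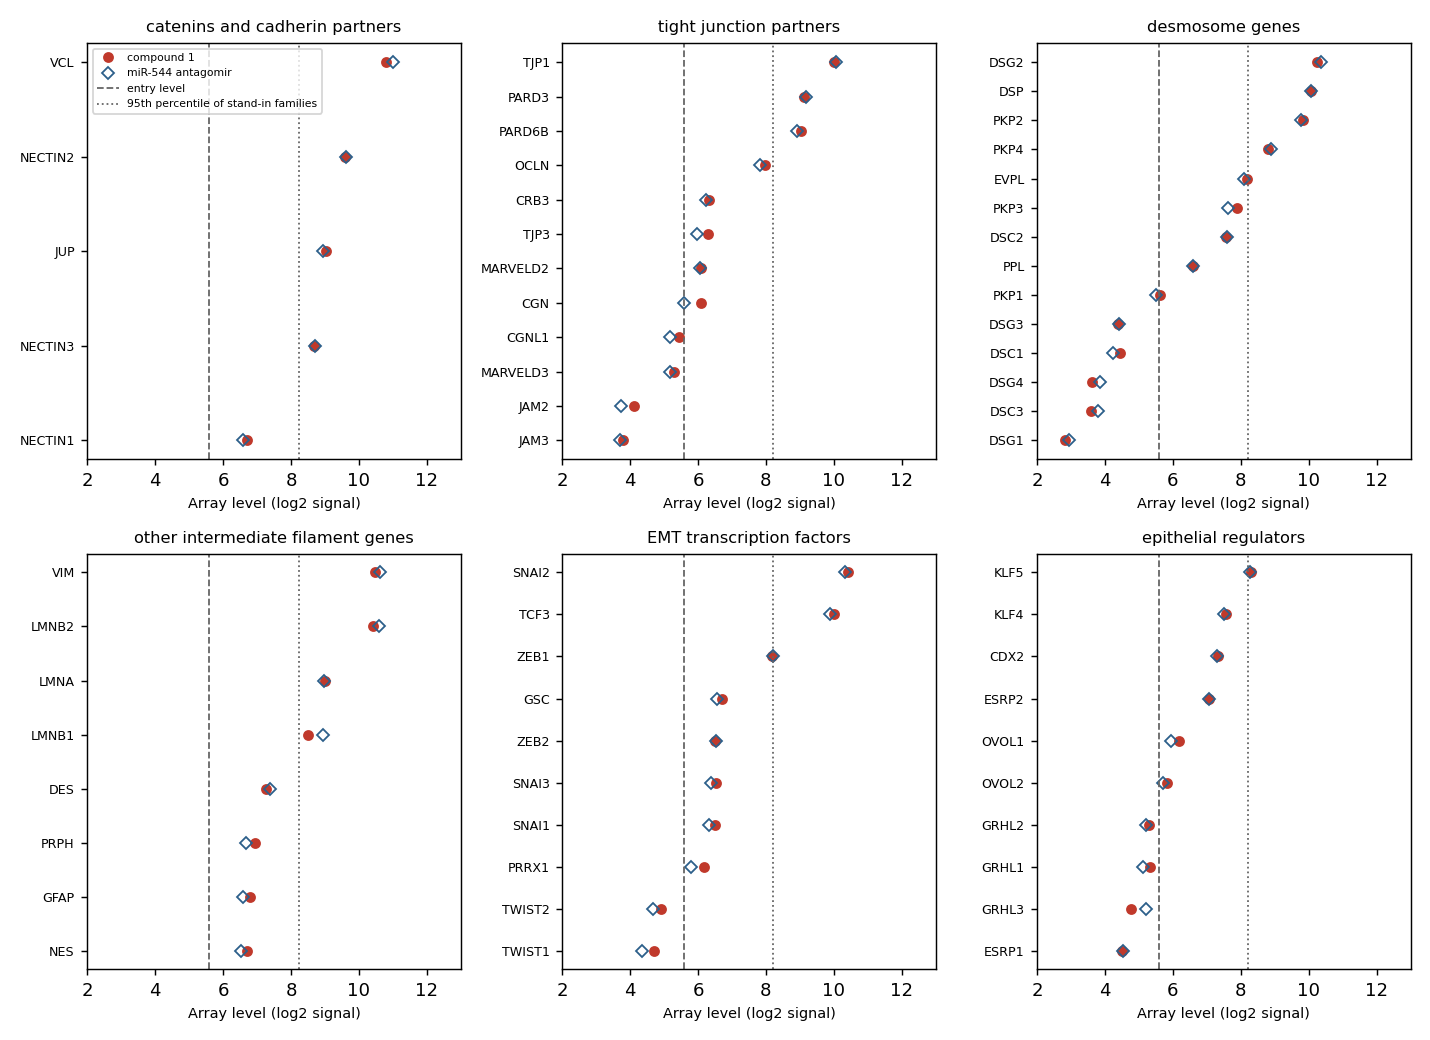
Levels of 6 lists of partner and regulator genes on the compound 1 array (red circles) and the miR-544 antagomir array (blue diamonds), in log2 signal, with the cluster of highest mean for each gene. The dashed line is the entry level of 5.60 and the dotted line the stricter level of 8.22. DSG2 and DSP lie past the dotted line and DSG1, DSG3 and DSC3 left of the dashed one.

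A difference is the compound 1 level minus the antagomir level. Past 1.5-fold there were 2 of 73 members (2.74%), both higher on the compound 1 array, against 135 of 11915 protein-coding genes (1.13%), of which 78 were higher (0.655%) and 57 lower (0.478%). Among protein-coding genes below the entry level on both arrays the share was 3.60%, and among the stand-in genes 6.45%. KRT9 was at 5.79 with compound 1 and 5.02 with the antagomir, or 1.70-fold apart. KRT20, given above, differed 1.59-fold. Neither gene had both arrays past the entry level. Of members with both arrays past it 0 of 35 differed by 1.5-fold, against 31 of 9226 protein-coding genes.

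Where the higher array exceeded the lower by at least 25%, the count was 14 members (19.2%), 12 of them higher on the compound 1 array, against 1210 protein-coding genes (10.2%), with 601 higher (5.04%) and 609 lower (5.11%). The share was 19.5% of protein-coding genes below the entry level on both arrays, 9 of the 33 members there (27.3%) and 22.6% of the stand-in genes. The 12 higher members were the keratins KRT3, KRT9, KRT20, KRT23, KRT26, KRT33B, KRT72, KRT73 and KRT84 and the claudins CLDN6, CLDN17 and CLDN19, and the 2 lower ones were KRT10 and KRT25. In 9 of the 14 both arrays were below the entry level, and in 2, KRT23 and CLDN19, both were past it. KRT23 differed by 0.36 and CLDN19 by 0.44, and after quantile normalization by 0.35 and 0.47.

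The median difference was 0.10 over the 47 keratins, 0.00865 over the 24 claudins and 0.083 over the 2 cadherins, against -0.023 over all protein-coding genes. The keratin-associated proteins had a median of 0.10 and the stand-in genes as a whole 0.092, so the keratin median is near that of those families. With entry at the 75th percentile the keratin median was -0.044, over 6 genes, and after centring the claudin median was -0.021. Higher on the compound 1 array were 35 of 47 keratins, 12 of 24 claudins and 2 of 2 cadherins, against 44.0% of all protein-coding genes, 59 of 84 keratin-associated proteins (70.2%) and 66.9% of the stand-in genes. After cyclic loess, which removes a trend of the difference with level, 29 keratins (61.7%) and 12 claudins were higher, against 48.9% of all protein-coding genes and 60.5% of the stand-in genes. The difference ran with level in these arrays: of protein-coding genes below the entry level on both arrays 60.5% were higher on the compound 1 array, and so were 21 of the 33 members there (63.6%). Of protein-coding genes past the entry level on both arrays 39.2% were higher, against 23 of the 35 members there (65.7%). Among genes with a mean level between the entry level and 7, 55.4% of all protein-coding genes and 18 of 24 members were higher, and between 7 and 9, 34.2% of all protein-coding genes and 7 of 10 members. The part of this level trend in the keratin median was not tested beyond these values.

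The 6 members past the stricter level on at least 1 array were on the other side of 0 as deposited. KRT80 passed that level on the antagomir array only, the array where it was higher, so its sign is no support for this. KRT18 differed by -0.10, KRT19 by -0.26, KRT80 by -0.28 and CLDN7 by -0.17, so each was lower on the compound 1 array as deposited, and also after centring, quantile normalization and cyclic loess. After quantile normalization these differences were -0.032, -0.18, -0.22 and -0.083. The KRT18 values here are from the cluster numbered among chromosome 3 genes. The other KRT18 cluster, under the stricter level on both arrays, differed by -0.022 as deposited. CLDN1 (-0.019) and CLDN3 (-0.053) turned sign under 2 scalings: CLDN1 was at 0.051 by quantile and 0.052 by cyclic loess, and CLDN3 at 0.023 by quantile and 0.013 by cyclic loess. CLDN4 differed by -0.29 and kept a negative difference under all 3 scalings. At mean levels of 9 and above 24.9% of protein-coding genes were higher on the compound 1 array, with a median of -0.079, and 0 of the 3 members there.

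The 5 named basal and wound keratins were higher on the compound 1 array as deposited and under all 3 scalings, with a median of 0.21 as deposited, but only KRT15 and KRT16 had both arrays past the entry level. Of the root sheath keratins 8 of 9 were higher (median 0.20) and of the hair and nail keratins 11 of 13 (median 0.089), beside 70.2% of the keratin-associated proteins and 60.5% of protein-coding genes below the entry level. After cyclic loess these counts were 7 of 9 (median 0.13) and 8 of 13 (median 0.0076). The 14 suprabasal keratins had 7 higher and 6 lower (median 0.020, but -0.0094 after centring, -0.023 by quantile and -0.049 by cyclic loess), and the 6 simple epithelial keratins 4 higher and 2 lower (median 0.042). Among the lists of partners, 10 of 12 tight junction genes were higher (median 0.12), 6 of 14 desmosome genes (median -0.013), 2 of 5 cadherin partners (median -0.029), 8 of 10 transition factors (median 0.15), 8 of 10 epithelial regulators (median 0.042) and 4 of 8 other intermediate filament genes (median -0.031). Of all protein-coding genes 44.0% were higher as deposited and 38.2% after centring. After centring 6 of 10 epithelial regulators (median 0.012) and 3 of 6 simple epithelial keratins (median 0.0125) were higher. By quantile and by cyclic loess these counts stayed at 8 and 4. The medians of the desmosome genes, cadherin partners and other intermediate filament genes turned positive by quantile (0.019, 0.046 and 0.031) and by cyclic loess (0.0072, 0.038 and 0.022). Past 1.5-fold there were 0 of these partner genes, against 1.13% of all protein-coding genes. The highest and lowest differences in each list were 0.52 (CGN) and -0.067 (PARD3) for the tight junction, 0.27 (PKP3) and -0.22 (DSG4) for the desmosome, and 0.11 (NECTIN1) and -0.21 (VCL) for the cadherin partners. They were 0.38 (PRRX1) and -0.044 (ZEB2) for the transition factors, 0.23 (GRHL1) and -0.44 (GRHL3) for the epithelial regulators, and 0.26 (PRPH) and -0.45 (LMNB1) for the other filaments. Among the identity markers they were 0.35 (TWIST1) and -0.13 (VIM) for the mesenchymal-like, 0.25 (FOXA1) and -0.10 (ESR1) for the luminal and 0.28 (KRT1) and -0.33 (KRT10) for the stratified list.

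**Figure D5:**
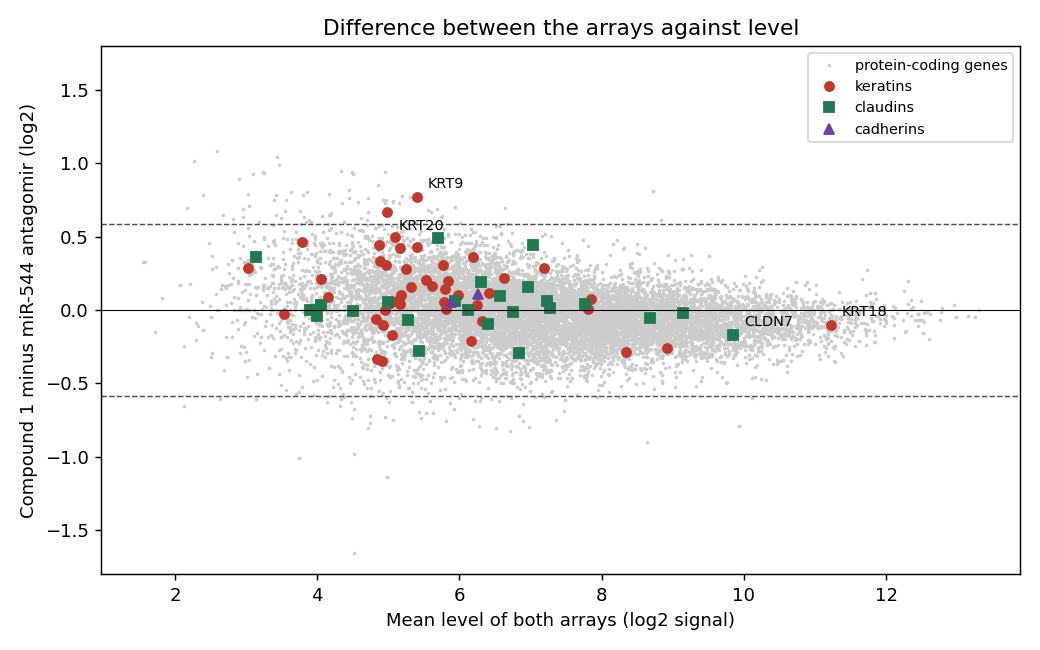
Difference between the arrays (compound 1 minus miR-544 antagomir, log2) against the mean level of both arrays (log2 signal) for all protein-coding genes (grey points), keratins (red circles), claudins (green squares) and cadherins (purple triangles). The dashed lines mark 1.5-fold, which KRT9 at 0.77 and KRT20 at 0.67 pass, and the grey points lean upward at low level and downward at high level.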

How the data were processed

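Total RNA of MDA-MB-231 cells was labelled with biotin from 5 µg and read on 1 array per treatment. For each array the deposited values run, cluster by cluster, between 0.372 and 14.2. The deposited values are taken as log2 signal from this range. Log base, background correction, summarisation and normalization: not given in the sources used here. Folds assume base 2. The series title names another array type than the probe table, which belongs to a gene-level whole-transcript design. Of 53617 clusters 16098 had 1 gene name, and all 16098 gene identifiers matched RefSeq GRCh38.p14, which gave symbols, gene types, order along chromosomes and promoter windows. No scaling was applied in the reported values. A gene was represented by its cluster with the highest mean, and medians and fold counts cover all members without a filter on level. The plan had listed no filter as an alternative, with genes at the entry level as the reported setting. Reporting all members was decided after the data were seen, because a median over genes that passed a filter is no support, and the filtered values are in the closing section. The counting of folds was tested on simulated data with 200 planted genes. The planted shifts were larger than 1.5-fold and the scatter smaller than in these arrays. This checked the counting only, not how scatter affects the counts reported. Genes named are those past the entry level on both arrays, those past 1.5-fold, 15 usual identity markers where named here, members with more than 1 cluster and the 3 nearest on each side of the entry level. Other members and partner genes given with values were chosen after their values were seen. The members and the 21 lists were chosen with earlier results of these data known. Alternatives were scalings, filters, cluster choice and fold thresholds. The tools were limma 3.58.1 in R 4.3.3, and pandas 2.3.3, numpy 2.4.6 and matplotlib 3.10.9 in Python 3.11.15. The number of arrays limits the precision.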

Additional observations from a re-analysis of the deposited data

How the results depend on the processing

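No paired analysis was possible because neither group has a second array. The stand-in families, the restriction to genes past the entry level on either array, the other KRT18 cluster and the scalings of the keratin subfamilies and partner lists were chosen after seeing the data. Counts of members depended on the level asked for. With entry at the 75th percentile (7.10) 6 keratins, 7 claudins and 0 cadherins remained, and at the level of the stand-in families 3, 3 and 0. The entry counts moved little under the scalings, to 21 keratins and 17 claudins after cyclic loess. Members past 1.5-fold numbered 1 among genes past the entry level on either array, 0 with both arrays past it and 0 with entry at the 75th percentile, while protein-coding genes past it numbered 51, 31 and 17. Where the higher array exceeded the lower by 25% there were 14 of 73 members (19.2%) and 1210 of 11915 protein-coding genes (10.2%). At 2-fold there were 0 of 73 and 6 of 11915 (0.0504%). The keratin median was -0.044 with entry at the 75th percentile, 0.065 with both arrays past the entry level and 0.060 after cyclic loess. The claudin median was -0.021 after centring and 0.031 among genes past the entry level on either array, and the cadherin median 0.053 after centring and 0.048 after cyclic loess. Of the 73 members 12 turned sign under a scaling (7 keratins and 5 claudins). KRT9 and KRT20 stayed past 1.5-fold under centring, quantile normalization and cyclic loess. Single members moved by less than 0.18, the robust SD of all protein-coding differences, in all 292 values under the scalings and the mean of clusters. Centring shifts every member by the same amount. The mean of clusters can change only KRT18, which alone has more than 1 cluster. The values under these settings were thus largely fixed in advance. The planned level from olfactory receptor genes was not run, since 1 such gene is named in the probe table. Fewer genes are counted by construction under the filters and fold thresholds, and the cause of the other moves was not tested. The cadherin median has no value at the 75th percentile. At low signal differences scatter more, with a robust SD of 0.27 below a mean level of 4 and 0.12 at 9 and above.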
